A study of Homo sapiens with 4 samples.

Results

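Virus restriction factors are host proteins that block a step of viral replication, and many of their genes are switched on by interferons. Chromatin accessibility was described here at 8 such genes, IFITM1, IFITM2, IFITM3, BST2, SAMHD1, SAMD9, SAMD9L and SLFN5, chosen by name out of 20033 protein-coding genes. ATAC-seq, which marks open chromatin by where a transposase can insert sequencing adapters, had been run on HK1, an epithelial cell line from a nasopharyngeal carcinoma. The members were the peaks that overlapped the gene body or the 10 kb upstream of one of the 8 genes. Merging the peaks of the 4 deposited lists wherever they shared a base gave 19 regions, out of 93211 in the whole series. All coordinates are on GRCh38.

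Each of the 4 groups was 1 library: HK1 with the WT genotype and the Control treatment (WT), HK1 with the WT genotype and IFN-γ (WT-IFN-γ), HK1 carrying sgFLI1 with the Control treatment (sgFLI1), and HK1 carrying sgFLI1 with IFN-γ (sgFLI1-IFN-γ). The pair carrying sgFLI1, a guide against the ETS-family transcription factor FLI1, is called FLI1-KO. The comparisons asked how accessibility at these genes differed with IFN-γ, and whether that difference was the same without FLI1. The labels give no dose or duration of IFN-γ, and do not say which guide was used or whether the FLI1-KO cells were a clone or a pool. An accessibility peak does not report on the edit at FLI1, so the knockout was not checked here.

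With 1 library per group there was no replicate error and no test. Every interval below is a 95% interval that covers counting error only, and any difference between groups is a difference between those libraries. The value of a peak was its summit pileup, the number of tags covering its highest point. For ratios the pileup was divided by the tag density of its library, in tags per kb of genome (untreated and treated WT 8.04 and 8.84, untreated and treated FLI1-KO 6.93 and 6.86). A ratio is called outside counting error when its interval does not hold equality.

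The lists held 59629 to 67470 peaks, with median pileups of 26 to 31 tags. Epithelial identity was checked at 8 marker genes, of which 5 or 6 had a peak at the transcription start in each library, while KRT14 and TP63 had none in any. The 4 T cell markers had no peak in any library. Of 14 markers of other cell types, T cell markers included, 2 or 3 had a peak in each library, with CD14 and COL1A1 in all 4. The fibroblast marker COL1A1 had 132 to 172 tags, above the highest epithelial marker, SFN, at 106 to 118.

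The IFITM proteins sit in cell membranes and block the fusion of enveloped viruses with the cell. BST2, also called tetherin, holds budding virions on the cell surface. SAMHD1 hydrolyses the deoxynucleotides that retroviruses need, SAMD9 and SAMD9L restrict poxviruses and slow protein synthesis, and SLFN5 is a Schlafen family protein that represses transcription and restricts herpesvirus. Interferon regulatory factors bind promoters of interferon-stimulated genes at elements built from repeated GAAA cores.

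The promoters show where such elements lay. RefSeq promoters (GRCh38.p14) were at hand for 6 of the 8 genes, all but IFITM2 and SLFN5. The motif searched was GAAANNGAAA on both strands, from 250 bases before to 50 after the start, and overlapping matches were counted. Of all 35116 RefSeq promoters, 3.57% held a match and 0.259% held 2 or more. Matches were found in 4 of the 6 promoters. IFITM1, IFITM3 and BST2 held 2 each, SAMD9 held 1, and SAMHD1 and SAMD9L held none. The 4 promoters with a match are shown from 150 bases before the start to 10 after it, on the gene's strand, with the matches in capitals.
IFITM1, chr11:313890-314049, + strand: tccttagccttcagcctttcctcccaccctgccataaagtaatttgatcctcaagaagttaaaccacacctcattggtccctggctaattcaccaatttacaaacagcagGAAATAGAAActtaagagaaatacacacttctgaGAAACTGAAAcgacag
IFITM3, chr11:320851-321010, - strand: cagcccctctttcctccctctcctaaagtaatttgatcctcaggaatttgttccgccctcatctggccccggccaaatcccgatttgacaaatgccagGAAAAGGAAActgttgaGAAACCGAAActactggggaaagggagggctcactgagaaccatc
BST2, chr19:17405621-17405780, - strand: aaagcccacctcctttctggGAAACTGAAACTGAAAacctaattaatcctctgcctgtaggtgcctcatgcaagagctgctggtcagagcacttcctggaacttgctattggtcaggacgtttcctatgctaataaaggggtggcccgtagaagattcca
SAMD9, chr7:93117970-93118129, - strand: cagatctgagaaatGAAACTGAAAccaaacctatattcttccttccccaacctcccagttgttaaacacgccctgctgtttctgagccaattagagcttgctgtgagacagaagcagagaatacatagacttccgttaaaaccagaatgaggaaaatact

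The IFITM1 matches spanned -40 to -31 and -6 to +4 from the start, and those of IFITM3 spanned -52 to -43 and -35 to -26. In BST2 the matches at -130 to -121 and -124 to -115 overlapped, so that they form 1 run of 3 GAAA cores. The SAMD9 match lay at -136 to -127. A match is a description of the letters, not a binding site.

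Across the 8 genes, WT had 13 peaks untreated and 19 with IFN-γ, and FLI1-KO had 15 in each state. The whole lists moved too, from 59629 to 67470 peaks in WT and from 63203 to 59923 in FLI1-KO. By merged region, 12 had a peak in untreated and 16 in treated WT, with 5 in the treated library only and 1 in the untreated library only, while 14 had one in each FLI1-KO library. The remaining peaks came from regions that held 2 peaks in a library, which the IFITM3 promoter and SLFN5 start regions did in treated but not in untreated WT. Of the 19 regions, 10 (52.6%) were in all 4 lists, beside 43.9% of the series' regions. A further 3 were in 3 lists, 1 was in 2 lists and 5 were in a single list.

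**Figure D1:**
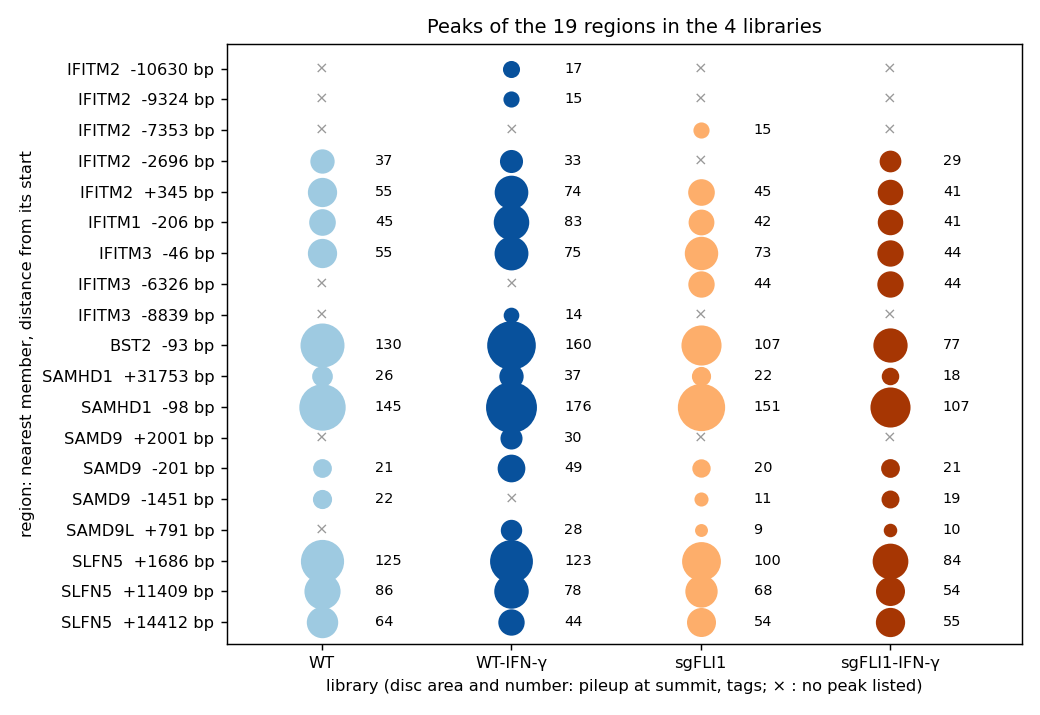
The 19 regions (vertical axis, named by the nearest of the 8 genes and the distance in bp of the highest summit from its canonical start) in the 4 libraries (horizontal axis). Disc area and the number beside it give the summit pileup in tags, and a cross marks a library with no listed peak. The highest pileups stood at the starts of BST2, SAMHD1 and SLFN5, and the region 6326 bp upstream of IFITM3 had a peak of 44 tags in both FLI1-KO libraries and none in either WT library.

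IFITM1, IFITM2 and IFITM3 lie side by side on chromosome 11. At IFITM1, the peak over the promoter (chr11:313348-314588) had 45 tags in untreated WT and 83 with IFN-γ, against 42 and 41 in FLI1-KO. The treated WT library stood above the other three, which ranged from 41 to 45 tags. The normalised pileup in WT was 1.68-fold higher with IFN-γ (95% counting interval 1.15 to 2.47), and in FLI1-KO the ratio was 0.986 (0.626 to 1.55). Among treated cells, the FLI1-KO value was 0.636 of the WT value (0.427 to 0.936). The local background that the peak caller assigned to this site also differed, at 8.48 tags in untreated and 16.5 in treated WT, against 8.41 and 8.09 in FLI1-KO. The fold enrichment over that background was therefore 4.85 in WT and 4.81 in WT-IFN-γ, so that the difference stood in the pileup and in the surrounding signal but not in the enrichment. The part of the surrounding signal in the result was not tested. The summits also lay at different places within the peak, 307 bp after the start in untreated and 206 bp before it in treated WT, and 78 and 130 bp before it in FLI1-KO.

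At IFITM2 the peak over the first exon (chr11:308076-310250 after merging, with the highest summit in the 5′ UTR 345 bp after the start) had 55 tags in untreated WT, 74 with IFN-γ, and 45 and 41 in the FLI1-KO pair. The order of the tag counts was that of IFITM1, but none of the 4 ratios was outside counting error. The WT ratio was 1.22 (0.852 to 1.77) and that of treated FLI1-KO over treated WT was 0.714 (0.475 to 1.06). The merged region covered an annotated start of IFITM2 and an upstream annotated start of IFITM1, but no canonical start. Its highest summit lay 247 bp before the start of another annotated protein-coding gene, which was nearer than that of IFITM2. A weaker peak 2696 bp upstream of IFITM2 had 37 tags in untreated WT, 33 in treated WT and 29 in treated FLI1-KO, with no peak in untreated FLI1-KO.

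The IFITM3 promoter peak (chr11:319484-321122 after merging) had 55 tags in untreated and 75 in treated WT, while FLI1-KO had 73 untreated and 44 treated. Normalised to tag density, untreated FLI1-KO was the highest at 10.5, above treated WT at 8.49 and untreated WT at 6.84, and treated FLI1-KO was the lowest at 6.41. Untreated FLI1-KO was 1.54-fold above untreated WT (1.07 to 2.23). With IFN-γ the ratio was 1.24 in WT (0.865 to 1.79) and 0.609 in FLI1-KO (0.409 to 0.897). Of the 32-base windows within 100 bp of this summit, 15.3% occurred elsewhere in the genome, and the share at the IFITM2 peak was 7.65%. Alignments of low mapping quality had been removed from the data, and the part of this in the values was not tested.

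A separate region lay 6326 bp upstream of the canonical IFITM3 start, at chr11:326569-327588, over an annotated start of a longer IFITM3 transcript. Both FLI1-KO libraries had 44 tags there, and neither WT library had a peak. At the depth of the WT libraries the same signal would have stood at 51.1 and 56.1 tags, where peaks were listed from 15 and 16 tags at the matching local background. This was the only one of the 19 regions in both FLI1-KO lists and neither WT list, and 0 regions showed the reverse. The share of the series' regions with this pattern is not given, so the count was not set against the series. Of all sgFLI1 peaks 25.3% were missing in WT, and of all sgFLI1-IFN-γ peaks 19.8% were missing in WT-IFN-γ. None of its 32-base windows occurred elsewhere in the genome.

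The remaining regions of the IFITM cluster were weak. Peaks of 17 and 15 tags, 10630 and 9324 bp upstream of IFITM2, and a peak of 14 tags, 8839 bp upstream of IFITM3, were in the WT-IFN-γ list only. A peak of 15 tags, 7353 bp upstream of IFITM2, was in the sgFLI1 list only. The 3 regions far upstream of IFITM2 were nearer to the start of IFITM5, which is no member, than to that of IFITM2. Scaled to the depth of the libraries without a peak, these 4 would have had 10.9 to 19.1 tags, where peaks were listed from 8 to 13. The region 9324 bp upstream of IFITM2 was the closest to its limits. It would have had 13.7 tags in WT (listed from 12), 11.8 in sgFLI1 (from 11) and 11.6 in sgFLI1-IFN-γ (from 11).

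BST2 had a single region, over its promoter on chromosome 19 (chr19:17405099-17406435). Its pileup was 130 tags untreated and 160 treated in WT, and 107 and 77 in FLI1-KO. The treated FLI1-KO library was the lowest, and the treated WT library the highest. In the treated cells FLI1-KO had 0.620 of the WT value (0.466 to 0.819), and with IFN-γ the FLI1-KO ratio was 0.727 (0.535 to 0.984) beside 1.12 in WT (0.883 to 1.42). With libraries scaled by the median pileup of the peaks they share, the FLI1-KO ratio was 0.795 and its interval held equality (0.586 to 1.08). The one-to-one peaks within 5 Mb of BST2 had a median log2 ratio of −0.22 in treated FLI1-KO over treated WT, and of −0.20 in the untreated pair. Less this neighbourhood value, the log2 difference at the BST2 promoter in treated cells was −0.47 in place of −0.69. The local background at this site was 19 tags in treated WT and 10.4 in treated FLI1-KO, and with the authors' fold over that background the log2 difference was −0.24. The part of the surrounding signal here was not tested. The summit lay 57 to 93 bp before the start in the other three libraries and 178 bp after it in sgFLI1-IFN-γ, so that the GAAA matches were within 100 bp of the summit in the former and not in the latter.

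The SAMHD1 promoter on chromosome 20 (chr20:36950778-36952303) held the highest pileup of all 19 regions. WT had 145 tags there untreated and 176 treated, and FLI1-KO had 151 and 107. In sgFLI1 its −log10 q ranked at the 99.5th percentile of the list. As at BST2 and IFITM3, the treated FLI1-KO library was the lowest. The ratio with IFN-γ was 1.10 in WT (0.882 to 1.39) and 0.716 in FLI1-KO (0.554 to 0.923), or 0.783 when scaled by shared peaks (0.606 to 1.01). A peak in intron 6 of SAMHD1 (chr20:36919476-36920366), 31753 bp after the start, had 26 and 37 tags in WT, untreated and treated, and 22 and 18 in FLI1-KO. The order was the one seen at the IFITM2 first exon, and no ratio there was outside counting error.

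SAMD9 and SAMD9L are neighbours on chromosome 7. The SAMD9 promoter peak (chr7:93117602-93118487) had 49 tags in treated WT, against 21 in untreated WT and 20 and 21 in FLI1-KO. Only the treated WT library stood apart. The normalised pileup there was 2.12-fold that of untreated WT (1.25 to 3.73), which put the ratio at the 98.6th percentile of all one-to-one peaks of the pair. In FLI1-KO the ratio was 1.06 (0.547 to 2.06), and treated FLI1-KO had 0.552 of the treated WT value (0.315 to 0.938). The local background at this site was 3.91 tags in untreated and 6.77 in treated WT, and 2.51 and 3.73 in FLI1-KO. With the authors' fold over it, the log2 ratio with IFN-γ was 0.52 in WT and −0.36 in FLI1-KO. That of treated FLI1-KO over treated WT was −0.47. The part of the surrounding signal here was not tested.

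A second SAMD9 region, in intron 1 and 2001 bp after the start, had 30 tags in WT-IFN-γ and no peak in the other three libraries. At the depth of WT it would have stood at 27.3 tags, where a peak was listed from 15. Its letters are shown because it held 2 matches to the AP1 motif TGANTCA (capitals) within 100 bp of the summit. The summit was at 93115978, in a peak at chr7:93115889-93116207, and the 60 bases on each side are printed on the gene's strand.
SAMD9 intron 1, chr7:93115918-93116038, - strand: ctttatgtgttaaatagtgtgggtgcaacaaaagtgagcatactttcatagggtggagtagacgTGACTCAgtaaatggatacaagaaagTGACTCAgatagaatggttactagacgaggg

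A further SAMD9 region, 1451 bp upstream, had no peak in treated WT. Its pileup was 22 tags in untreated WT, and 11 and 19 tags in untreated and treated FLI1-KO. In treated WT the signal of WT would have given 24.2 tags against a listing limit of 12.

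SAMD9L was the only one of the 8 genes with no peak in WT. Over its start and first intron (chr7:93147200-93148582) treated WT had 28 tags and the FLI1-KO pair had 9 and 10, with the summits 771 to 791 bp after the start. The WT-IFN-γ peak reached the start itself, and the FLI1-KO peaks lay within intron 1. The treated WT library was again the highest, and the FLI1-KO pair was near the listing limit. At the depth of WT the WT-IFN-γ signal would have been 25.5 tags, listed from 10. Treated FLI1-KO had 0.460 of the treated WT value (0.199 to 0.976), or 0.470 when scaled by shared peaks (0.204 to 0.997). No GAAANNGAAA match was in the SAMD9L promoter window, but 1 lay within 100 bp of this intronic summit, and its 100 bases on each side are shown with the match in capitals.
SAMD9L intron 1, chr7:93147494-93147694, - strand: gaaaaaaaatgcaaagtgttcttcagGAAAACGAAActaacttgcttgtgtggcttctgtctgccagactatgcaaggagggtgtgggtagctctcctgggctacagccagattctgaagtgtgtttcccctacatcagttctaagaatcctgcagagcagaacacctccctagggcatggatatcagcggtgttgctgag

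SLFN5 lies on chromosome 17 and held 3 of the 19 regions. Its peak over the start and the beginning of intron 1 (chr17:35242363-35245391) had 125 tags in untreated and 123 in treated WT, with 100 and 84 in FLI1-KO, and no ratio was outside counting error. In treated WT this region was split into 2 peaks, and the highest summit lay 58 bp before the start, while it lay 1686, 1601 and 1572 bp after the start in untreated WT and in untreated and treated FLI1-KO. The ratios that involve treated WT therefore set summits in different parts of the region side by side. Of the 32-base windows around the highest summit, 45.9% occurred elsewhere in the genome, up to 2353 times. In intron 1, 11409 bp after the start, a peak had 86 and 78 tags in WT and 68 and 54 in FLI1-KO, each untreated first, with no ratio outside counting error. Further into the same intron, at 14412 bp, WT had 64 tags untreated and 44 treated, against 54 and 55 in FLI1-KO. Here the treated WT library was the lowest, at 0.626 of untreated WT (0.416 to 0.933), and treated FLI1-KO was 1.61-fold above treated WT (1.06 to 2.45). The first of these ratios was 0.689 when scaled by library background (0.458 to 1.03), and the second was 1.51 after the median of the peaks within 5 Mb was taken off, with a lower bound of 0.999, so that both intervals then held equality.

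**Figure D2:**
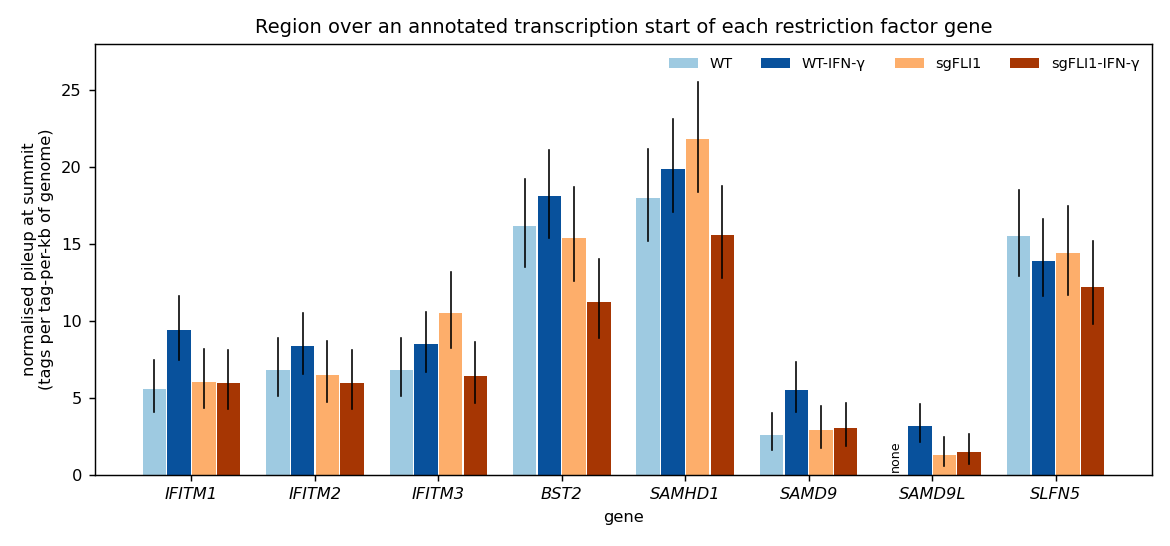
Summit pileup divided by the tag density of the library (vertical axis, tags per tag-per-kb of genome) for the highest peak of the merged region that covers an annotated start of each of the 8 genes (horizontal axis). Bars are the 4 libraries, lines are 95% Poisson intervals of the count, and "none" marks SAMD9L in WT, which had no peak. At IFITM1 and SAMD9 the WT-IFN-γ bar (9.39 and 5.54) stood above the other three (5.59 to 6.06 and 2.61 to 3.06).

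Counted over genes, 4 of the 8 (IFITM2, IFITM3, SAMD9 and SAMD9L) had a region gained with IFN-γ in WT, meaning a treated peak that shared no base with an untreated one. Of all protein-coding genes 31.9% had such a region in the same window, and 17 of 32 other restriction factor genes did. IFITM5, one of the 32, has a window that overlaps those of IFITM1 and IFITM2 and shares regions with them, so the 2 counts are not separate. A region lost with IFN-γ in WT was found at 1 gene, SAMD9, beside 21.4% of all genes and 5 of the 32. In FLI1-KO, IFITM1 and IFITM2 had a gained region, which was 1 shared region, beside 22.9% of all genes and 7 of the 32. The same pair had a lost region, again 1 shared region, beside 27.9% of all genes and 8 of the 32. With 8 genes these shares are too coarse to set the members apart from the background.

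Counted over peaks, 5 of the 19 in WT-IFN-γ were gained, beside 25.2% of all WT-IFN-γ peaks, and 4 of those 5 had no peak in sgFLI1-IFN-γ, beside 74.1% of all gained regions of the series. The exception was SAMD9L. Between genotypes, 3 of the 15 peaks in sgFLI1 were missing in WT (25.3% of all sgFLI1 peaks were), and 1 of the 13 in WT was missing in sgFLI1 (21.4% of all WT peaks). In treated cells, 2 of the 15 peaks in sgFLI1-IFN-γ were missing in WT-IFN-γ (19.8% of all), and 5 of the 19 in WT-IFN-γ were missing in sgFLI1-IFN-γ (29.0% of all). In these genotype comparisons no share of the members stood above its background.

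Ratios were taken over peaks that overlapped one to one. For WT-IFN-γ over WT, the median log2 ratio of 10 member peaks was 0.19, beside −0.07 over all 49258 such peaks. With the authors' fold over local background in place of the pileup, that member median was −0.01. The only member past 2-fold higher was the SAMD9 promoter and 0 were past 2-fold lower, beside 1.80% and 0.920% of all peaks. With the authors' fold the SAMD9 promoter was not past 2-fold (log2 ratio 0.52). For sgFLI1-IFN-γ over sgFLI1 the median of 14 member peaks was −0.07, beside −0.14 over all. None was past 2-fold either way, beside 0.210% higher and 0.513% lower of all peaks.

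Between genotypes, the median log2 ratio of sgFLI1 over WT was −0.03 over 9 member peaks and 0.05 over all. No member was past 2-fold, beside 4.09% higher and 1.87% lower of all peaks. In treated cells the median of sgFLI1-IFN-γ over WT-IFN-γ was −0.45 over 12 member peaks and −0.02 over all. Of the 12, 9 were lower in FLI1-KO, and 3 were above the median of all peaks. By definition, as many peaks of the series lay above that value as below it. The member median was −0.18 with the authors' fold, and −0.17 with windows reaching 50 kb upstream. The only one past 2-fold lower was at SAMD9L and 0 were past 2-fold higher, beside 3.29% and 2.94% of all peaks. With the authors' fold the SAMD9L peak was not past 2-fold (log2 ratio −0.73). Both genotype comparisons and both IFN-γ comparisons share libraries, so these medians are not independent of each other.

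At the 10 regions listed in all 4 libraries, the difference with IFN-γ in WT was set against that in FLI1-KO. It was higher in WT at 9 of the 10, beside 57.9% of the series' 40876 regions in all 4 lists, and its median was 0.62 on the log2 scale, beside 0.08. The exception was the far intron 1 peak of SLFN5. Scaled by the median pileup of shared peaks, the difference was also below 0 at the SLFN5 start (−0.03) and the nearer SLFN5 intron 1 peak (−0.07). With the authors' fold it was below 0 at the IFITM1 promoter (−0.03) and the far SLFN5 peak (−0.61). The series' share and median are those under tag density. Scaled by tag density, the difference was outside counting error at 3 regions, all promoters. It was 1.03 on the log2 scale at IFITM3 (0.25 to 1.81), 0.62 at BST2 (0.06 to 1.19) and 0.63 at SAMHD1 (0.13 to 1.12). The share of the series' regions with a difference outside counting error is not given, so the count of 3 was not set against the series. With libraries scaled by the median pileup of shared peaks, the interval at BST2 included 0 (0.51, −0.05 to 1.08). With the authors' fold the differences were 0.67, 0.35 and 0.43, and the WT part of each was −0.02, 0.00 and −0.03. At IFITM3 the untreated FLI1-KO pileup of 73 tags, against 55 in untreated WT, enters the value.

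**Figure D3:**
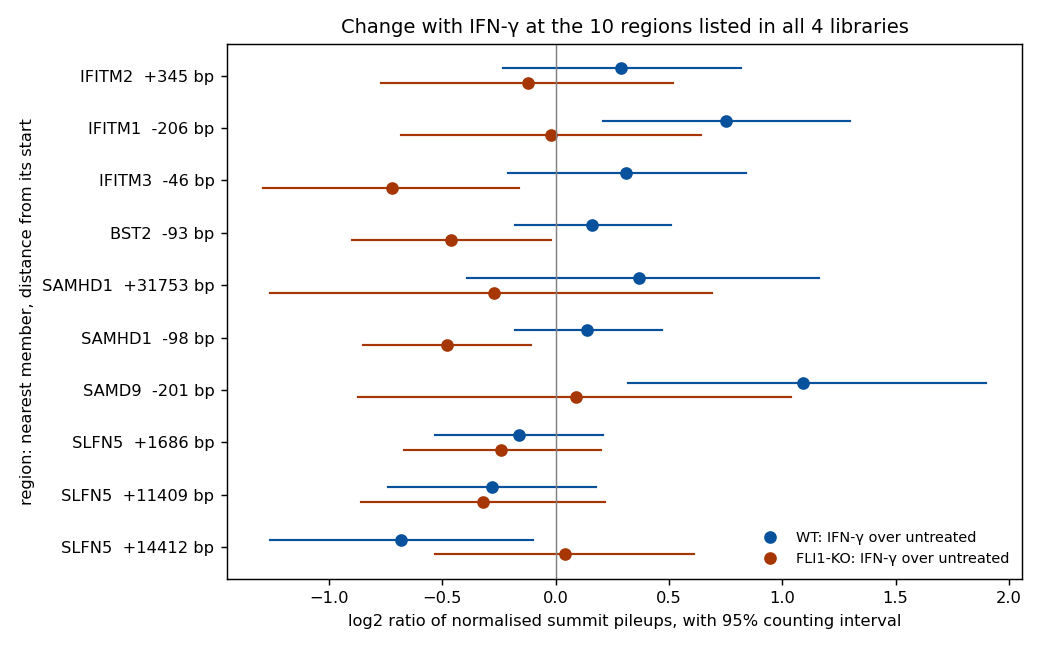
Log2 ratio of normalised summit pileups with IFN-γ over without (horizontal axis, lines are 95% counting intervals) at the 10 regions listed in all 4 libraries (vertical axis, named by nearest gene and distance of the summit from its start). Blue is WT and brown is FLI1-KO. The WT point lay to the right of the FLI1-KO point at 9 of the 10 regions, and the lines overlapped in all 10 pairs.

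Motifs were also searched within 100 bp of each summit. In WT, GAAANNGAAA was found at 3 of 13 member peaks untreated (2.35% of all peaks) and at 4 of 19 treated (5.60%). In FLI1-KO it was found at 5 of 15 untreated (2.24%) and at 4 of 15 treated (2.67%). The matches were at the IFITM3, SAMD9, SAMD9L, BST2 and IFITM1 peaks, with BST2 and IFITM1 depending on where the summit fell. TGANTCA was found at 2 or 3 member peaks in each library, beside 21.9% to 24.3% of all peaks. The ETS motif CCGGAAGT, of the kind FLI1 binds, was found at 0 member peaks in each of the 4 lists, beside 1.28% to 1.42% of all peaks. No match says only that these letters were not in the windows.

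Among the 32 other restriction factor genes, 17 had a region gained with IFN-γ in WT and 7 in FLI1-KO. The shares of all protein-coding genes were 31.9% and 22.9%. The genes named below were picked on peak strength in WT-IFN-γ. That choice by itself makes a lower or missing peak in sgFLI1-IFN-γ more likely, so the contrast at these genes was not read as a genotype difference. The strongest by −log10 q was at GBP5, a guanylate-binding protein, with 127 tags in WT-IFN-γ and 19 in sgFLI1-IFN-γ. TRIM22 and TRIM5, neighbouring tripartite-motif genes, shared a gained region of 95 tags, and MOV10, an RNA helicase, and GBP2 had gained regions of 47 and 46 tags. None of those regions had a peak in sgFLI1-IFN-γ, beside 74.1% of all regions gained in WT that had none. TRIM5 had 2 regions gained in WT and 7 gained in FLI1-KO. SLFN12L, a Schlafen family gene, had 31 tags in WT-IFN-γ and 13 in sgFLI1-IFN-γ. The gained regions at SAMD9 and SAMD9L, with 30 and 28 tags, were of the height of the last of these.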

How the data were processed

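ATAC-seq had been made from 4 HK1 cultures, 1 library per group, and the groups were taken from the labels. Per their methods and the submitters' processing notes, the authors used Trimmomatic 0.3 for trimming, Bowtie2 2.3.4.1 for alignment to GRCh38 and MACS2 2.1.2 for peak calling, after taking out duplicates and reads that mapped poorly. The methods also name a filter on reproducibility between replicates and a differential test. Whether that filter was applied to these lists, and whether replicates were pooled, is not given in the sources used here. The processing notes also list FastQC, SAMtools, Picard, ChIPseeker and DiffBind, with no result of theirs used.

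The deposited lists give for each peak the fold enrichment of its summit, a ratio of pileup to local background, with the −log10 p-value and the −log10 q-value, a score made from the latter by the authors' peak caller, and the distance of the summit from the peak's start. Peaks were listed up to q-values of 0.0484 to 0.0499. The whole-number summit pileup was recovered from fold and −log10 p, for 100% of peaks. Tag density was the library background divided by the tag extension length (249 to 274 bp, the shortest peak of a list), and the deepest library had 1.29 times the density of the shallowest. Depth in reads is unknown, since the lists hold none.

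Genes, transcripts and canonical starts came from GENCODE 44. Peaks were shared when they overlapped by 1 base. Pileups have exact Poisson intervals, ratios exact conditional binomial intervals, and differences of ratios exact conditional intervals, all at 95%. PCR duplicates and sampling between cultures are not covered. Regions were described one by one if they covered a start, were gained or lost, or ranked above the median of a list, and up to 6 other factors were named by −log10 q. The 8 genes and all lists were chosen with earlier results of these data known. The 4 motifs searched include 1 that is not reported here. Scripts used Python 3.11.15, numpy 2.4.6, pandas 2.3.3, scipy 1.17.1, pysam 0.24.0, samtools 1.23.1 and matplotlib 3.10.9, and were tested on simulated data. Alternatives were −log10 q limits, window sizes, overlap rules, scalings, the authors' fold and motif windows. Those for single regions were chosen after seeing the data.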

Additional observations from a re-analysis of the deposited data

Results flagged for a closer look

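At 7 of the 10 regions listed in all 4 libraries the pileup was on opposite sides of equality with IFN-γ in WT and in FLI1-KO, beside 45.2% of the series' 40876 regions in all 4 lists. With 1 library per group, this difference between the genotypes was not tested. The log2 response in WT less that in FLI1-KO was 0.41 at the IFITM2 first exon, 0.77 at the IFITM1 promoter, 1.03 at the IFITM3 promoter, 0.62 at the BST2 promoter, 0.65 at the SAMHD1 intron 6 peak and 0.63 at the SAMHD1 promoter, each with WT above and FLI1-KO below equality. It was −0.72 at the far intron 1 peak of SLFN5, where the directions were the other way round. The median log2 ratio over one-to-one member peaks, 0.19 in WT and −0.07 in FLI1-KO, also had opposite signs, a difference of 0.25.

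The FLI1-KO ratio at the IFITM1 promoter (−0.02) and at the far SLFN5 peak (0.04) was near equality. Treated and untreated FLI1-KO tags were 41 and 42 at IFITM1, and 55 and 54 at SLFN5. Equal tags of 44 at the region 6326 bp upstream of IFITM3 gave 0.02, through depth alone. The opposite sign therefore rests on a difference of 1 tag at IFITM1 but not at SLFN5. With libraries scaled by the median pileup of shared peaks, 5 of the 10 regions had opposite directions, IFITM1 and IFITM2 no longer being among them, and the FLI1-KO median was 0.06. With scaling by library background 6 of the 10 did, IFITM1 no longer being among them. With the authors' fold over local background 8 of the 10 did, the IFITM3 and SAMHD1 promoters no longer being among them. The SAMD9 promoter, the SLFN5 start and the nearer SLFN5 intron 1 peak were among them with this measure only. At those SLFN5 peaks the WT log2 ratio was 0.01 and 0.00, beside −0.11 and −0.08 in FLI1-KO. The WT log2 ratio was then −0.02 at the IFITM3 promoter and −0.03 at the SAMHD1 promoter, with both genotypes below equality there. It was 0.00 at BST2, and −0.01 at IFITM1 beside 0.01 in FLI1-KO. The medians of −0.01 in WT and −0.09 in FLI1-KO had the same sign. The series' share of opposite directions, 45.2%, is that under tag density. It is not given for the other measures, so the counts of 5, 6 and 8 of the 10 were not set against the series.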

How the results depend on the processing

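The values rest on 1 library per group, with no replicate to leave out, and on lists without reads, in which signal under the listing limit is not seen. No paired analysis was possible because each group was 1 library. Of 132 values under another setting, 86 held and 46 moved. A count held when it was within 1.5 times the one reported. A median held when its shift was at most 0.5 of the width of a counting interval. That interval was for the ratio of summed pileups, not for the median itself. The cause of a moved value was not tested, beyond what a window or limit takes in by its construction.

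With windows reaching 50 kb upstream, WT had 23 peaks untreated and 32 treated, and FLI1-KO 25 and 26. In WT 9 regions at 7 genes were gained and 2 genes had a lost one, and in FLI1-KO 2 regions were gained. Peaks missing in the other genotype were 5 of sgFLI1, 3 of WT and 8 of WT-IFN-γ. The median log2 ratio of treated FLI1-KO over treated WT was −0.17. With 3 kb upstream, 3 regions were gained in WT, 2 of them with no peak in sgFLI1-IFN-γ. In FLI1-KO 1 gene had a gained and 0 a lost region, and 3 peaks of WT-IFN-γ were missing in sgFLI1-IFN-γ.

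At a −log10 q of at least 5, 3 regions were gained in WT and 2 in FLI1-KO, 0 genes had a lost region in FLI1-KO, and 1 peak of sgFLI1 and 2 of WT were missing in the other genotype. At a −log10 q of at least 10, 2 regions at 2 genes were gained in WT, and these 2 had no peak in sgFLI1-IFN-γ. In FLI1-KO 0 regions at 0 genes were gained. A lost region was at 0 genes in WT and 1 in FLI1-KO. Peaks missing in the other genotype were 1 of sgFLI1, 0 of WT, 1 of sgFLI1-IFN-γ and 3 of WT-IFN-γ.

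With peaks shared only where summits lay within 250 bp, 8 regions were gained in WT and 2 in FLI1-KO, 2 genes had a lost region in WT, and 5 peaks of sgFLI1 and 3 of WT were missing in the other genotype. With an overlap of at least 0.5 of the shorter peak, 2 peaks of WT were missing in sgFLI1.

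With the authors' fold, the median log2 ratio was −0.01 for treated over untreated WT and −0.18 for treated FLI1-KO over treated WT, and the IFITM1 promoter ratio in WT reversed, to −0.01. The ratio of treated FLI1-KO over treated WT was then −0.06 at the IFITM1 and −0.24 at the BST2 promoter. Scaling by shared peaks shifted every FLI1-KO log2 ratio with IFN-γ by 0.13, and scaling by library background shifted every WT one by 0.14. The median of member peaks in FLI1-KO was then 0.06 with the former, and that of untreated FLI1-KO over WT was 0.05 with the latter.

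Within 50 bp of the summit, GAAANNGAAA was found at 2 peaks of WT-IFN-γ and 2 of sgFLI1-IFN-γ, and TGANTCA at 1 peak of WT, 1 of WT-IFN-γ and 0 of sgFLI1.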
